A study of Homo sapiens with 5 samples.

Results

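In BT549 cells that carried constitutively active Smad3 (caSmad3) and were transfected with polyI:C, the places where 2 antibodies enriched DNA were compared: anti-IRF3, against the antiviral transcription factor IRF3, and anti-Smad3, against the TGF-beta effector Smad3. The members were all peaks of the 2 deposited ChIP-seq peak lists, 8067 for IRF3 and 6041 for Smad3, which together make 14108 of the 19372 peaks of the series. A peak of either antibody was called shared when it had at least 1 base in common with a peak of the other, and alone otherwise. BT549 is a basal-like breast cancer cell line, and both lists came from cells of the same kind, infected with a lentiviral vector for caSmad3, given polyI:C and no TGF-beta. The labels do not say whether the cells were 1 clone, nor whether the antibody tells introduced from native Smad3. The series holds 3 more libraries, all from cells with an HA control vector: IRF3 after polyI:C without TGF-beta (4125 peaks), Smad3 after polyI:C and TGF-beta (786 peaks), and Smad3 after mock transfection and TGF-beta (353 peaks). TGF-beta was given there at 1 ng/ml for 1.5 h. Each list is 1 library, so nothing between libraries was tested, and every 95% Clopper-Pearson interval given in brackets covers counting error only. No RNA was measured, so the labelled cell type could not be checked on its markers. The lists hold positions without scores or read counts, so depth is unknown and an absent peak does not show absent binding.

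IRF3 is held in the cytoplasm until kinases downstream of RNA sensors phosphorylate it, after which it enters the nucleus and binds elements with repeated GAAA letters near interferon and antiviral genes. Smad3 is phosphorylated by activated TGF-beta receptors, joins Smad4, and binds short CAGAC or GC-rich letters, mostly beside other factors such as AP-1. PolyI:C imitates double-stranded viral RNA, and caSmad3 is a form of Smad3 that acts without the receptor signal.

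To show what DNA lay under the peaks, the upstream 250 bases of 6 named genes are printed, 2 for each kind of gene, taken by the widest covering peak. ID1 and ID3, inhibitors of helix-loop-helix factors and known Smad targets, stand for genes with overlapping peaks of both antibodies. AZI2, an adaptor of the kinase TBK1, and B2M, the light chain of MHC class I, stand for genes with IRF3 alone. COL12A1, a collagen gene, and LPP, which encodes a focal adhesion protein, stand for genes with Smad3 alone. Sequences are from RefSeq (GRCh38.p14), in the direction of transcription, and capitals mark any of the 11 short motifs listed with the motif counts, on either strand. The windows are ID1 chr20:31605039-31605288 (plus strand), ID3 chr1:23559502-23559751 (minus), AZI2 chr3:28348825-28349074 (minus), B2M chr15:44711267-44711516 (plus), COL12A1 chr6:75206054-75206303 (minus) and LPP chr3:188153648-188153897 (plus, at a start inside the annotated gene).
ID1: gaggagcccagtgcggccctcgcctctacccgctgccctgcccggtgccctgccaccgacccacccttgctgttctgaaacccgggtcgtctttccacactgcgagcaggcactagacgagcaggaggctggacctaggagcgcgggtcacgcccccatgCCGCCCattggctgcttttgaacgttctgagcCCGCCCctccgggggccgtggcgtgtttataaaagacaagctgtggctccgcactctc
ID3: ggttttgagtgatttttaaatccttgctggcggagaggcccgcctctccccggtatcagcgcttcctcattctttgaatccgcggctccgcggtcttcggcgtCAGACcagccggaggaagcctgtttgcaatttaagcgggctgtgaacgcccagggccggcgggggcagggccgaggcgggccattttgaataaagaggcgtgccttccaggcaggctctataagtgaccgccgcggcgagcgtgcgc
AZI2: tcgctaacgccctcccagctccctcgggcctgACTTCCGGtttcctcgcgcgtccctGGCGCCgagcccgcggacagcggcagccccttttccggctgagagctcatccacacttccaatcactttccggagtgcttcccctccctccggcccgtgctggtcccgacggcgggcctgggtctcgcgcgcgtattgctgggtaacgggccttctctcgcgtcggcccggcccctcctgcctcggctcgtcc
B2M: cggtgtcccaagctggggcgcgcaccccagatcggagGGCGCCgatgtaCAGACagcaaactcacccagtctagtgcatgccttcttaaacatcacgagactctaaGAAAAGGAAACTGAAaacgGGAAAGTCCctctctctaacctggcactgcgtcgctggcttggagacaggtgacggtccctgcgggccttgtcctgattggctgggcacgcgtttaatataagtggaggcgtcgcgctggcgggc
COL12A1: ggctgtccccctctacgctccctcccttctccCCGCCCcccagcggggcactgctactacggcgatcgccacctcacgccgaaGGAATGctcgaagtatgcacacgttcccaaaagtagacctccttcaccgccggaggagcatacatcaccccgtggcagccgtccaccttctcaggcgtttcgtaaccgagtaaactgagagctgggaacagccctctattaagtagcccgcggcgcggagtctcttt
LPP: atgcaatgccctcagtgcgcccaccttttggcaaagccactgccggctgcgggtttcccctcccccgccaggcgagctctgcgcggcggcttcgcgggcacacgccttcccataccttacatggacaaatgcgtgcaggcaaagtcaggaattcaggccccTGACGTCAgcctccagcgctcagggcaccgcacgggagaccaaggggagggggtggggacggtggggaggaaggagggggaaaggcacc
At ID1 all 250 bases lay under a peak of each antibody, and at ID3 250 lay under the IRF3 peak and 190 under the Smad3 peak. The IRF3 peaks at AZI2 and B2M also covered all 250 bases. The Smad3 peaks at COL12A1 and LPP covered 97 and 69 bases. B2M held 2 overlapping GAAANNGAA matches, whose first bases lay at -144 and -138 from the start, and an NF-kB type match at -125. The ID1 stretch held 2 GGGCGG matches (-90 and -58) and none of the Smad or IRF letters, although both antibodies covered it. ID3 held 1 CAGAC match at -147. AZI2 held the ETS letters CCGGAAGT at -218 and GGCGCC at -193, and B2M also GGCGCC at -213 and CAGAC at -201. COL12A1 held GGGCGG at -218 and GGAATG at -167, and LPP the CRE letters TGACGTCA at -89, all outside the bases that the Smad3 peaks covered.

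Fewer than 1 in 3 peaks of either list was shared. Of the IRF3 peaks, 1841 of 8067, or 22.8% (21.9 to 23.8), overlapped a Smad3 peak. Of the Smad3 peaks, 1909 of 6041, or 31.6% (30.4 to 32.8), overlapped an IRF3 peak. Together they made 1984 pairs, since 122 IRF3 peaks and 74 Smad3 peaks met more than 1 peak of the other antibody. In HA cells given polyI:C, IRF3 and Smad3 overlapped at 5.60% of the IRF3 peaks (4.92 to 6.35) and 31.2% of the Smad3 peaks (27.9 to 34.5). The cells of that Smad3 library had also received TGF-beta. Its list held 786 peaks, against 4125 in the IRF3 list of HA cells, so only few IRF3 peaks could be met. The shares of IRF3 peaks are therefore not comparable between HA and caSmad3 cells. Within a pair the median was 140.5 bases in common, with quartiles of 99.0 and 218. The pair's centres lay a median of 78.0 bases apart, and within 200 bases in 87.7% of pairs. The Smad3 peak lay wholly inside the IRF3 peak in 920 pairs (46.4%), and the reverse held in 166 pairs (8.37%). At the edge of the rule, 36 pairs had 1 to 10 bases in common, while 29 IRF3 peaks and 18 Smad3 peaks called alone had a peak of the other antibody 1 to 10 bases away.

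Shared IRF3 peaks were wide and shared Smad3 peaks were not. The median width was 337 bases for shared IRF3 peaks and 192 for IRF3 alone, against 186 for shared Smad3 peaks and 174 for Smad3 alone. From the narrowest to the widest quartile of width, 8.97%, 14.3%, 22.5% and 45.5% of IRF3 peaks were shared. For Smad3 the quartiles differed little, with 29.1%, 30.7%, 32.6% and 34.1%. A wider peak also has more bases with which to overlap, and the part of width in these shares was not tested.

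Smad3 peaks without IRF3 lay in other places than the rest. With 1 kb around both ends of each protein-coding gene counted, gene ends held 73.5% of shared IRF3 peaks, 77.9% of IRF3-alone peaks and 73.8% of shared Smad3 peaks, but 14.3% of Smad3-alone peaks. Of the Smad3-alone peaks, 38.3% lay inside a protein-coding gene away from its ends, against 11.9% of shared Smad3 peaks. Beyond 10 kb of any protein-coding gene lay 39.3% and 10.9%. Peaks within 1 kb of genes for rRNA, tRNA, snRNA or snoRNA were more frequent among shared peaks, with 7.50% of shared IRF3 peaks and 1.01% of IRF3-alone peaks, and 7.28% of shared Smad3 peaks and 0.508% of Smad3-alone peaks. Without all such peaks the overlap was 21.7% of IRF3 peaks and 30.1% of Smad3 peaks. Chromosomes 3, 8, 9 and 20 held 1611 of the 8067 IRF3 peaks and 1822 of the 6041 Smad3 peaks (30.2%). Over chromosomes with both antibodies, the shared fraction ran between 10.9% (chromosome 5) and 41.2% (chromosome 20) of IRF3 peaks, and between 17.3% (chromosome 5) and 64.2% (chromosome 21, which holds rRNA gene copies) of Smad3 peaks.

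**Figure D1:**
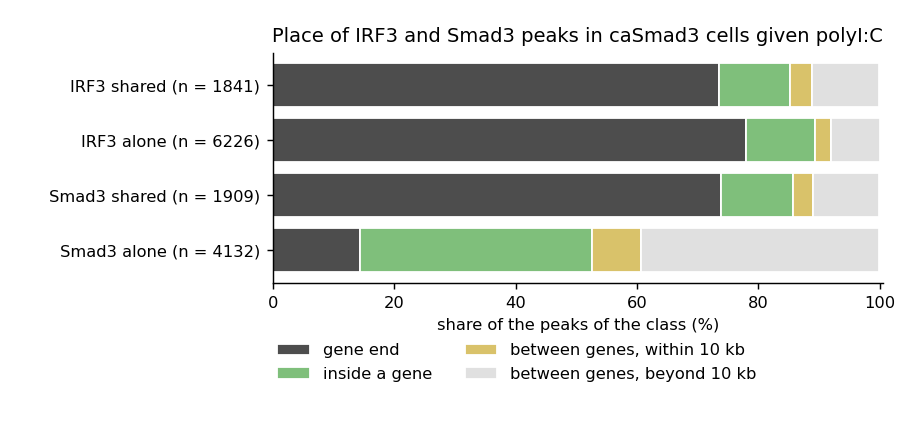
Share of peaks (%, horizontal axis) by place for shared and lone peaks of IRF3 and Smad3; colours give the place and each bar sums to the whole class. Gene ends hold 73.5%, 77.9% and 73.8% of the upper 3 classes and 14.3% of the Smad3-alone class.

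Among peaks within 1 kb of a transcription start, most centres lay within 200 bases of it, but only 46.6% of Smad3-alone centres did. Smad3 centres lay a little farther upstream than IRF3 centres. The RefSeq promoter table gave starts for 15842 of 20033 protein-coding genes (79.1%), none of them on chromosome 8. Within 1 kb of such a start lay 70.4% of shared IRF3 peaks (68.2 to 72.6), 74.1% of IRF3-alone peaks (73.0 to 75.2), 71.4% of shared Smad3 peaks (69.3 to 73.5) and 13.4% of Smad3-alone peaks (12.4 to 14.5). Their median position, counted along transcription, was 4.25 bases downstream for shared IRF3 peaks and 16.5 downstream for IRF3 alone. The median of shared Smad3 peaks was -15.5 and that of Smad3-alone peaks was -83.5, both upstream. Upstream of the start lay 47.6% of the shared IRF3 peaks, 45.3% of the IRF3-alone peaks, 54.8% of the shared Smad3 peaks and 64.7% of the Smad3-alone peaks. Inside the 1341 overlapping pairs at a start, the Smad3 centre was upstream of the IRF3 centre in 727 (54.3%, 51.5 to 56.9) and downstream in 613. Over all 1341 pairs the offset of the Smad3 centre from the IRF3 centre had a median of -10.0 bases, with quartiles of -92.5 and 68.0.

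**Figure D2:**
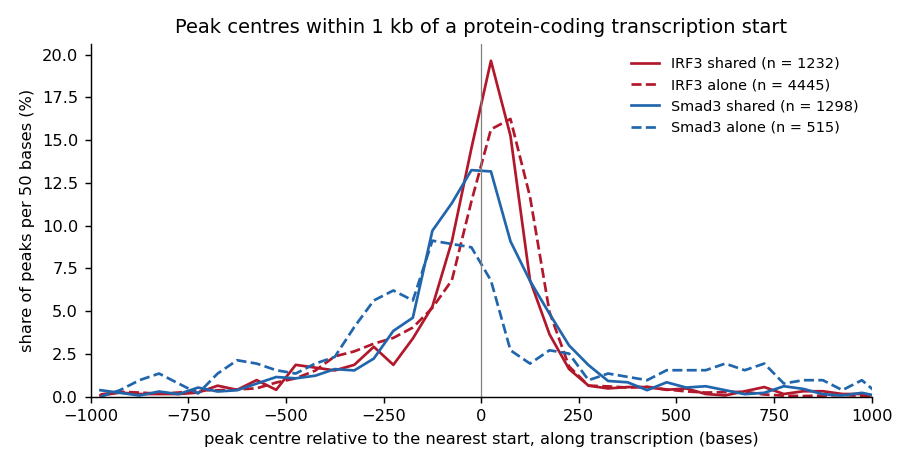
Position of peak centres relative to the nearest protein-coding start (bases along transcription, bins of 50 bases), as share of each class (%). The IRF3 classes and the shared Smad3 class are highest next to the start, and the 515 Smad3-alone peaks spread farther upstream, with a median of -83.5.

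Distances between the antibodies split into a near and a far group, and which group a Smad3 peak fell in went with its place. Of the 1760 Smad3 peaks within 200 bases of an IRF3 centre, 44 were alone. The near group is thus largely the shared class, and its place restates that of this class. From an IRF3 peak to the nearest Smad3 peak the median distance between centres was 59086 bases (quartiles 309 and 253782, n = 8065). From a Smad3 peak to the nearest IRF3 peak it was 26901 bases (quartiles 147.5 and 179396.5, n = 6041). Of the IRF3 peaks, 21.7% had a Smad3 centre within 200 bases and 41.4% had none within 100 kb. At gene ends the median for Smad3 was 126 bases, with 64.5% of peaks within 200 bases of an IRF3 centre, whereas away from gene ends it was 96659 bases, with 11.6% within 200 bases. For IRF3 the place made less difference, with medians of 62981 bases at gene ends and 40839 away from them. Distances of 1 to 10 kb were found for 4.51% of IRF3 peaks and 6.16% of Smad3 peaks, and those of 10 to 100 kb for 23.6% and 21.2%.

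**Figure D3:**
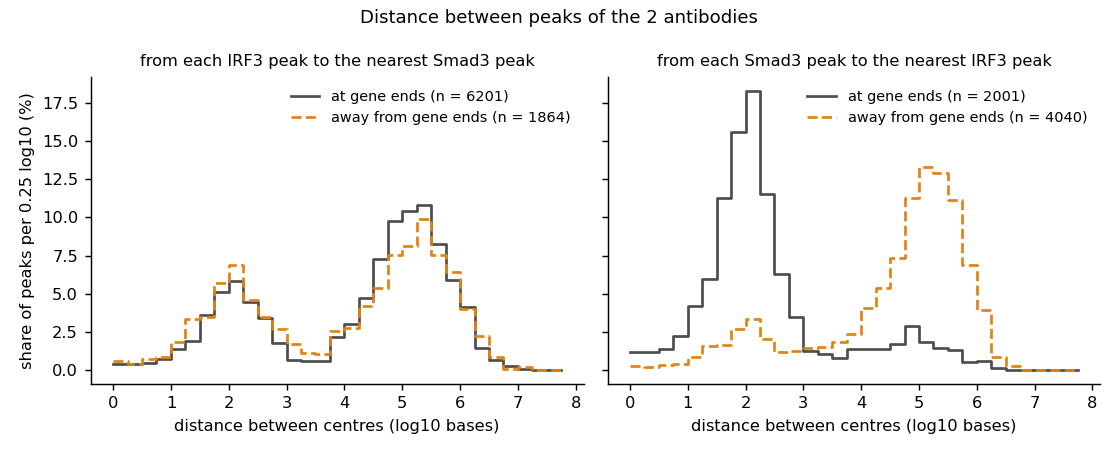
Distance between centres (log10 bases, horizontal axis) and share of peaks (%, per 0.25 log10 step), from IRF3 to Smad3 on the left and from Smad3 to IRF3 on the right, at gene ends (solid) and away from them (dashed). Smad3 peaks at gene ends gather near the median of 126 bases, those away near the median of 96659 bases, and IRF3 peaks of both places form 2 humps.

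Some lone peaks had the other antibody nearby. Among IRF3-alone peaks 560 (8.99%) had a Smad3 edge within 500 bases, and among Smad3-alone peaks 336 (8.13%) had an IRF3 edge within 500 bases. The 592 Smad3-alone peaks at gene ends had their nearest IRF3 centre at a median of 4813 bases, with a lower quartile of 426. The 3540 away from gene ends had it at a median of 127486 bases.

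Listing in HA cells with the same antibody was a readout that the classes did not use, and it depended on the width of the peak. The IRF3 list of HA cells held 66.2% of shared IRF3 peaks and 33.4% of IRF3-alone peaks. Within the widest quartile of IRF3 peaks it held 91.0% of the shared and 74.2% of the alone, in the quartiles between 61.0% and 42.7%, and 29.9% and 22.4%, and in the narrowest 11.0% and 11.4%, so the gap between classes was smaller at matched width. The Smad3 list of HA cells after polyI:C held 13.4% of shared and 9.56% of lone Smad3 peaks of caSmad3 cells, a gap that came from the widest peaks. In the widest quartile of Smad3 peaks (277 to 1952 bases) it held 38.8% of the shared (34.6 to 43.2) and 25.3% of the alone (22.7 to 28.1). In the other quartiles, from narrow to wide, it held 2.51%, 3.89% and 5.28% of the shared and 1.87%, 4.30% and 7.66% of the alone, so the order turned in the middle ones, where the intervals of both classes overlapped. The Smad3 list of mock-transfected HA cells likewise held 23.9% of the shared and 11.9% of the alone in the widest quartile, but 0.456%, 0.432% and 1.42% of the shared and 0.933%, 1.72% and 2.85% of the alone in the others. With widths not matched, the polyI:C list held, away from gene ends, 27.8% of shared Smad3 peaks (139 of 500) and 10.5% of lone ones (370 of 3540). Without peaks near small RNA genes and without the rRNA copies of chromosome 21, these shares were 14.8% (11.4 to 18.8) and 10.5% (9.48 to 11.5). At gene ends under that setting they were 7.41% (6.08 to 8.92) and 4.30% (2.80 to 6.29). IRF3-alone peaks were almost missing from the Smad3 lists of HA cells, with 11 of 6226 after polyI:C and 2 of 6226 after mock transfection. That class was set by the lack of a Smad3 peak in caSmad3 cells. The polyI:C list of 786 peaks met 255 shared and 395 lone Smad3 peaks of caSmad3 cells, so these low counts follow largely from the class rule.

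Of 20033 protein-coding genes, 39.1% were near an IRF3 peak, that is within 10 kb of either gene end, and 16.8% were near a Smad3 peak. Both were present at 2730 genes (13.6%), which made 34.8% of the genes with IRF3 and 81.2% of the genes with Smad3. An overlapping pair was present at 2199 genes (11.0%), and 531 (2.65%) had both antibodies but no overlapping peaks. At these 531 the smallest gap between the antibodies had a median of 1105 bases (quartiles 137 and 8765.5). IRF3 alone was near 5109 genes (25.5%) and Smad3 alone near 632 (3.15%). The other 11562 genes had neither. These shares are the background for the gene lists, and genes that neighbour each other can be counted for the same peak.

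**Figure D4:**
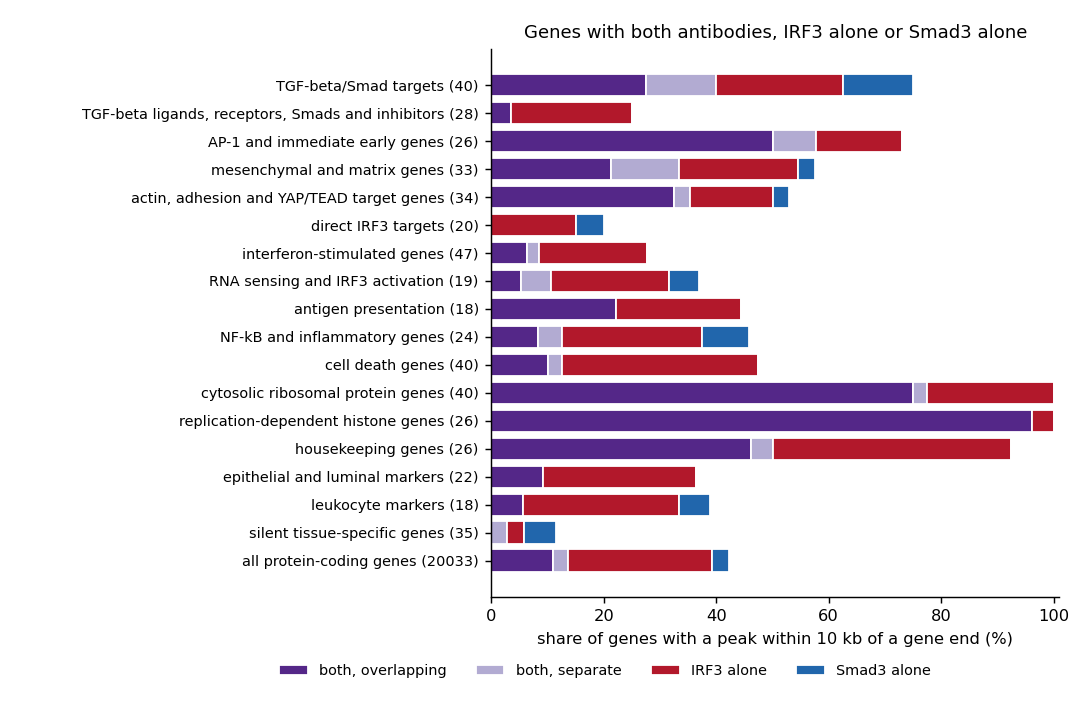
Share of genes (%, horizontal axis) with overlapping peaks of both antibodies, separate peaks of both, IRF3 alone or Smad3 alone within 10 kb of a gene end, for 17 gene lists and, in the bottom row, all 20033 protein-coding genes; numbers of genes are in brackets. At this 10 kb window Smad3 alone is most frequent in the TGF-beta/Smad targets, with 5 of 40, against 3.15% of all genes. This order depended on the window. At 1 kb it was 2 of 40 targets and 2 of 18 leukocyte markers, and at 50 kb 4 of 40 targets and 4 of 22 epithelial markers.

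Known TGF-beta/Smad targets carried every arrangement. Of 40, 11 had an overlapping pair, 5 had both antibodies apart, 9 had IRF3 alone, 5 had Smad3 alone and 10 had neither, while 11.0%, 2.65%, 25.5%, 3.15% and 57.7% of all genes did. Near these genes lay 46 IRF3 peaks, of which 21 (45.7%) were in pairs, and 67 Smad3 peaks, of which 22 (32.8%) were. CCN2, which encodes connective tissue growth factor, had 6 IRF3 peaks and 3 Smad3 peaks. Its widest IRF3 peak (chr6:131948061-131949263, 1203 bases, over the 3' end of the gene) met no Smad3 peak and was the widest of all IRF3-alone peaks, while the IRF3 peak over its start (267 bases, chr6:131951236-131951502) overlapped a Smad3 peak of 237 bases. CCN1, a matrix protein related to CCN2, had 6 IRF3 and 9 Smad3 peaks, with 3 and 4 of them in pairs. At ID1 the peaks over the start, 694 bases for IRF3 and 641 for Smad3, had 623 bases in common, and 4 of its 7 Smad3 peaks were free of IRF3.

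Both antibodies lay near some Smad targets without touching. At the 4 such genes named by the rule (LTBP2, BHLHE40, LTBP3 and SKI) the IRF3 peak had 143 to 203 bases. That is usual for IRF3-alone peaks, whose median was 192 bases (quartiles 127 and 292). BHLHE40, a helix-loop-helix repressor, had 1 IRF3 peak of 203 bases centred 176 bases into the gene and 4 Smad3 peaks, 2 upstream of the start (350 and 144 bases wide) and 2 beyond the gene (295 and 145 bases). At LTBP2, a latent TGF-beta binding protein gene, the widest Smad3 peak (785 bases, 5828 bases beyond the gene's upper end) lay at the opposite end of the gene to the IRF3 peak (190 bases). Smad3 alone marked ITGB6, the beta subunit of an integrin that activates TGF-beta, with peaks of 491 and 303 bases, TGFBI, a secreted matrix protein, with 490 and 389 bases, and SMAD7, the inhibitory Smad, with 176 and 149 bases. The peaks at SMAD7 were centred at -1495 and -1835.5 bases from the gene's 5' end, upstream of it. IRF3 alone was near ANGPTL4, a lipase inhibitor (389 bases), and HMOX1, a haem-degrading enzyme (340 bases), in both cases over a gene end. Of 28 genes for TGF-beta ligands, receptors, Smads and inhibitors, 1 had an overlapping pair, THBS1, which encodes an activator of latent TGF-beta. A further 6 had IRF3 alone, among them SMAD4 (353 bases over its start), and 21 had neither. Over all genes, 11.0% had a pair, 25.5% IRF3 alone and 57.7% neither.

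**Figure D5:**
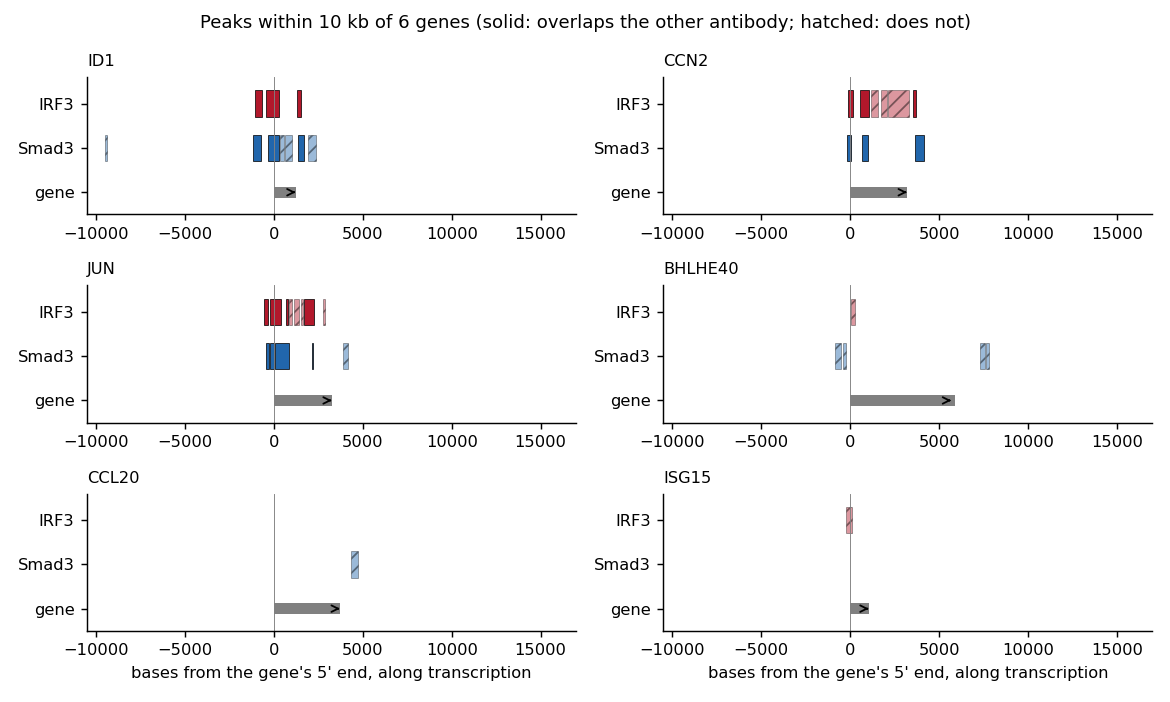
IRF3 peaks (upper row), Smad3 peaks (middle row) and the gene (grey, arrow along transcription) at 6 genes, by distance from the gene's 5' end (bases, horizontal axis); solid peaks overlap the other antibody and hatched ones do not. ID1, CCN2 and JUN have overlapping pairs, BHLHE40 separate peaks, CCL20 Smad3 alone and ISG15 IRF3 alone.

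Among 26 AP-1 and immediate early genes, 13 had an overlapping pair, 2 had separate peaks, 4 had IRF3 alone, 0 had Smad3 alone and 7 had neither. Over all genes, 11.0% had a pair, 2.65% separate peaks, 25.5% IRF3 alone, 3.15% Smad3 alone and 57.7% neither. JUN, an AP-1 subunit, had 8 IRF3 and 5 Smad3 peaks within 10 kb, with 4 of each in pairs. Its widest Smad3 peak, 747 bases, met IRF3 peaks of 602 and 122 bases. SGK1 and DUSP6, a kinase and a MAP kinase phosphatase, each had their only Smad3 peak (253 and 233 bases) wholly inside the widest IRF3 peak (634 and 585 bases). EGR1, a zinc finger factor, had 3 IRF3 peaks and a Smad3 peak of 309 bases beyond the end of the gene, without contact. Of 33 mesenchymal and matrix genes, 7 had a pair, 4 separate peaks, 7 IRF3 alone, 1 Smad3 alone and 14 neither. COL1A1, collagen type I, had a Smad3 peak of 948 bases 5198 bases below the gene and an IRF3 peak of 265 bases over its upper end. The protein-coding gene nearest to that Smad3 peak was SGCA, with an end 2502 bases from the peak's centre. VIM, the intermediate filament vimentin, had a Smad3 peak of 521 bases and an IRF3 peak of 405 bases apart from each other inside the gene. Of 34 actin, adhesion and YAP/TEAD target genes, 11 had a pair, 1 separate peaks, 5 IRF3 alone, 1 Smad3 alone and 16 neither. FLNA, the actin crosslinker filamin A, had 7 IRF3 and 5 Smad3 peaks with 4 of each in pairs. AXL, a receptor kinase, had 4 IRF3 and 4 Smad3 peaks with 1 of each in a pair, and its widest Smad3 peak, 769 bases inside the gene, was alone.

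In these 2 lists antiviral genes had few peaks of either antibody and few pairs. Of 20 direct IRF3 targets, 0 had a pair, 3 had IRF3 alone, 1 had Smad3 alone and 16 had neither, where 25.5% of all genes had IRF3 alone. The 3 with IRF3 alone were PMAIP1, the pro-apoptotic protein NOXA (369 bases over its start), ISG15, a ubiquitin-like modifier (309 bases, centred 64.0 bases upstream of its start), and ZC3HAV1, an antiviral zinc finger protein, with 2 peaks up to 118 bases. TNFSF10, the death ligand TRAIL, had a Smad3 peak of 219 bases inside the gene and no IRF3 peak. Among the direct targets with neither, the IRF3 list of HA cells held 6 peaks near IFNB1. It held 5, 8 and 9 near IFIT1, IFIT2 and IFIT3, and 0 near CXCL10, CXCL11 and RSAD2. Of 47 interferon-stimulated genes, 3 had a pair, 1 had separate peaks, 9 had IRF3 alone, 0 had Smad3 alone and 34 had neither. That made 6.38%, 2.13%, 19.1%, 0% and 72.3%, beside 11.0%, 2.65%, 25.5%, 3.15% and 57.7% of all genes. The pairs included those at TRIM25, a ubiquitin ligase of RNA sensing, and IFI35, an interferon-induced protein. At TRIM25 a Smad3 peak of 112 bases lay inside an IRF3 peak of 428 bases. The pair near IFI35 lay 8115 bases below the gene and was the same peaks as the pair inside RPL27, a ribosomal protein gene.

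RNA sensing and antigen presentation genes had IRF3 more often than Smad3, as did all genes. Of 19 RNA sensing genes, 1 had a pair (DDX3X, an RNA helicase), 1 had separate peaks (MAVS, the mitochondrial adaptor of the RNA sensors), 4 had IRF3 alone and 1 had Smad3 alone (TICAM1, the TLR3 adaptor, 371 bases). The 4 with IRF3 alone included AZI2 (676 bases), the kinase gene TBK1 (151 bases) and the IRF3 gene itself, with a peak of 576 bases over its upper end. A further 12 RNA sensing genes had neither. Of 18 antigen presentation genes, 4 had a pair, 4 had IRF3 alone and 10 had neither. PSME1 and PSME2, subunits of a proteasome activator, counted for the same pair, a Smad3 peak of 108 bases inside an IRF3 peak of 433. Of 24 NF-kB and inflammatory genes, 2 had a pair, 1 separate peaks, 6 IRF3 alone, 2 Smad3 alone and 13 neither. CCL20, a chemokine, had 1 Smad3 peak of 396 bases 623 bases beyond the gene, and CXCL1, a neutrophil chemokine, had 3 IRF3 and 4 Smad3 peaks with 2 of each in pairs. Of 40 cell death genes, 4 had a pair, among them MCL1, an inhibitor of apoptosis, 1 had separate peaks, 14 had IRF3 alone, 0 had Smad3 alone and 21 had neither. Beside these lists, 11.0% of all genes had a pair, 2.65% separate peaks, 25.5% IRF3 alone, 3.15% Smad3 alone and 57.7% neither. A pair was present at 22.2% of the antigen presentation genes and 10.0% of the cell death genes, against 5.26% of the RNA sensing and 8.33% of the NF-kB and inflammatory genes.

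Pairs were most frequent in the histone and ribosomal protein lists, followed by the AP-1 and immediate early genes and then the housekeeping genes. Of 26 replication-dependent histone genes 25 had a pair, of 40 cytosolic ribosomal protein genes 30 did, and of 26 housekeeping genes 12 did, beside 11.0% of all genes. Smad3 alone was found at 0 genes of each of these 3 lists, beside 3.15% of all genes. Histone genes stand close together and share peaks, so the 26 genes rested on 43 IRF3 and 73 Smad3 peaks, of which 81.4% and 87.7% were in pairs. A single IRF3 peak of 2348 bases over the linker histone gene H1-4 met 6 Smad3 peaks. RPS6, a protein of the small ribosomal subunit, had an IRF3 peak of 668 bases around a Smad3 peak of 555. Without peaks near these histone and ribosomal protein genes, 22.3% of the IRF3 peaks and 30.6% of the Smad3 peaks were still shared. Of 22 epithelial markers 2 had a pair and 6 had IRF3 alone, and of 18 leukocyte markers 1 had a pair, 5 IRF3 alone and 1 Smad3 alone. Of 35 genes of other tissues 0 had a pair, 1 separate peaks, 1 IRF3 alone and 2 Smad3 alone. Over all genes, 25.5% had IRF3 alone, 3.15% Smad3 alone and 2.65% separate peaks. The leukocyte pair, at CD68, was the same peaks as the pair at the translation factor gene EIF4A1.

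The widest shared peaks of both antibodies lay mostly at histone and rRNA genes, and the widest lone peaks lay elsewhere. The 2 widest shared IRF3 peaks were at the histone genes H3C14 (3449 bases, 5 pairs) and H1-4, and those ranked 3 to 5 (1948 to 1963 bases) lay within 1 kb of rRNA genes on chromosome 21. Among the 6 widest IRF3-alone peaks, those after CCN2 included peaks over an end of SERBP1 (981 bases, an mRNA-binding protein), SF3A2 (888, a splicing factor), DSN1 (851, a kinetochore protein) and ALDH16A1 (823). None of the 6 widest Smad3-alone peaks lay at a gene end. They were inside SLC25A37, a mitochondrial iron carrier (1307 bases), and VAV2, a guanine nucleotide exchange factor (1203 bases), and nearest to CIMIP1 (1134), SNX5, a sorting nexin (1069), SPRY1, an inhibitor of receptor kinase signalling, at 428802 bases (1022), and TRMO (1001). Within 10 kb of their ends, LOC124900275 had 7 Smad3-alone peaks, DDAH1 had 6, and 7 genes had 5 each, among them CCN1 and FOSL1, an AP-1 subunit. PPP2R5D, a phosphatase subunit, had 7 IRF3-alone peaks and ZNF48 had 6, with CARS2 and CHMP2A among those with 5. DDAH1 and CCN1 are neighbours and share some of these peaks. Among genes chosen after their values were seen, FRMD4A held 10 Smad3-alone peaks inside the gene, away from its ends, while LOC124905135, NRG1, a growth factor gene, and SHB, an adaptor gene, held 9 each.

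The widest shared Smad3 peak, 1952 bases (chr17:59842579-59844530), lay 1242 bases beyond MIR21, a microRNA gene that Smads are known to act on and that lies at the 3' end of VMP1. MIR21 was chosen after this peak was seen. Around it stood 4 IRF3 peaks of 761, 468, 933 and 658 bases, each of them shared, and 5 Smad3 peaks of 314, 121, 149, 363 and 1952 bases, of which the one of 149 bases was alone. The mature miRNA of the 5' arm (RefSeq, chr17:59841273-59841294, plus strand) is printed to identify the gene, with its seed, bases 2 to 8, in capitals.
hsa-miR-21-5p: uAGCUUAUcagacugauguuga
Of 1913 microRNA genes, 99 (5.18%) had an overlapping pair within 10 kb, 199 (10.4%) had IRF3 alone and 63 (3.29%) had Smad3 alone.

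Start windows with 1 base or more under a peak held the IRF letters and CAGAC no more often than all windows. They held ETS and SP/KLF letters more often. The windows were 22198 RefSeq stretches of 300 bases, of which 1227 were touched by both antibodies, 4036 by IRF3 alone and 316 by Smad3 alone. The IRF letters GAAANNGAA were in 6.28% of the windows with both, 6.86% with IRF3 alone and 5.38% with Smad3 alone, against 7.10% of all windows. The Smad letters CAGAC were in 43.0%, 43.7% and 41.8% of these classes, against 44.8% of all windows. GTCTAGAC was in 0.163%, 0.173% and 0% against 0.216%, and the GC-rich Smad letters GGCGCC in 29.1%, 32.5% and 25.3% against 24.3%. The AP-1 letters TGANTCA were in 5.05% with both, 2.63% with IRF3 alone and 7.28% with Smad3 alone, against 6.15%. The ETS letters CCGGAAGT were in 13.9%, 13.4% and 11.7%, against 5.33%, and the NRF1 letters GCGCATGC in 4.32%, 9.51% and 2.22%, against 3.74%. The SP/KLF letters GGGCGG were in 71.1%, 74.7% and 64.2%, against 56.3%, and the CRE letters TGACGTCA in 4.73%, 4.83% and 2.53%, against 2.26%. The TEAD letters GGAATG (9.37%, 9.51% and 12.3%, against 12.2%) and the NF-kB letters GGANTTTCC (1.79%, 1.61% and 3.80%, against 1.60%) complete the 11. Motifs were searched on both strands, a window could hold several, and matches could overlap. Median GC content was 64.3% with both, 65.3% with IRF3 alone and 63.0% with Smad3 alone, against 62.3% of all windows, and its part in these shares was not tested. Counting only windows that a peak covered whole left 29 with both, 676 with IRF3 alone and 44 with Smad3 alone. GAAANNGAA was then in 0%, 9.76% (7.63 to 12.3) and 6.82%, against 7.10% of all windows. CAGAC was in 48.3% (29.4 to 67.5), 39.9% and 50.0% (34.6 to 65.4), against 44.8%. CCGGAAGT was in 6.90%, 17.3% and 18.2%, against 5.33%, and GGGCGG in 58.6%, 70.7% and 54.5%, against 56.3%. In the main count a window was touched from 1 base on. Peaks away from starts were not read, so these shares say nothing of the sequence under most Smad3-alone peaks.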

How the data were processed

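ChIP-seq of IRF3 and Smad3 in BT549 cells was analysed from the deposited peak lists, 1 per library. Per the labels' protocols, libraries came from an Ion fragment kit and 15 cycles of PCR. Per the submitters' processing notes, Bowtie2 2.2.2.6, MACS2 2.1.0 and the build hg38 were used. Peak thresholds, an input control and duplicate removal were not given in the sources used here, and the deposited values are positions only, with no score or read count, so depth is unknown. Each list belongs to 1 sample, and peaks were not pooled.

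Starts were converted to 1-based positions. Peaks were compared by at least 1 base in common, genes came from RefSeq (GRCh38.p14, the coordinates of hg38, 20033 protein-coding genes), and a gene was near a peak within 10 kb of either end. The 10 kb window at the ends leaves out peaks deep inside long genes. Overlap, distance and gene assignment were tested on simulated positions against direct counting. Tools were Python 3.11.15, pandas 2.3.3, numpy 2.4.6 and scipy 1.17.1. The antibodies compared, the 17 gene lists (496 genes) and the motifs were chosen with earlier results of these data known. Named genes are, for each list and class, up to 4 with the widest peak, and over all genes those nearest the 6 widest peaks of each class and the 4 with most lone peaks. Some genes that this rule names are not reported here. Alternatives were other overlap rules, windows, annotations and sets of peaks, and those that leave out histone and ribosomal protein genes, use starts in place of ends, or leave out small RNA genes from the HA comparison were chosen after seeing the data.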

Additional observations from a re-analysis of the deposited data

How the results depend on the processing

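The overlap of 22.8% of IRF3 peaks and 31.6% of Smad3 peaks stayed between 19.5% and 24.9% and between 27.0% and 32.8% under every alternative but 1. Where at least 50% of both peaks had to overlap, 8.78% of IRF3 peaks and 11.7% of Smad3 peaks were shared. Centres within 200 bases gave 21.7% of IRF3 and 29.1% of Smad3 peaks, the wider 50% of each list 19.5% and 27.0%, and leaving out small RNA genes 21.7% and 30.1%. For IRF3, joining peaks closer than 1 kb gave 24.9% and leaving out chromosomes 3, 8, 9 and 20 gave 20.4%. The share at gene ends for shared IRF3, IRF3-alone, shared Smad3 and Smad3-alone peaks was 86.9%, 85.4%, 87.1% and 22.1% with ends of all annotated genes, 67.8%, 71.7%, 67.6% and 10.5% within 500 bases, and 76.6%, 80.8%, 77.0% and 18.3% within 2 kb. Within 1 kb of a start it was 70.4%, 74.1% and 71.4% for the first 3 classes. Smad3-alone peaks had the lowest share under each of these. Genes with both numbered 1792 with a 1 kb window, 5453 with 50 kb, 1242 with the wider 50% of peaks and 4311 of 59675 annotated genes of all kinds. Genes with Smad3 alone numbered 329 with 1 kb, 1128 with 50 kb, 1012 with gene bodies included and 1823 of all kinds, and those with IRF3 alone 7958 of all kinds. Distances between nearest edges gave medians of 58817 bases from IRF3 and 26763 from Smad3. Of 102 list counts recomputed with windows of 1 and 50 kb, 40 moved by more than 1.5 times, most of them counts of few genes. No paired analysis was possible because the groups hold 1 library each and no test was made. Unknown depth limits every count of lone peaks.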
